A study of Mus musculus with 577 samples.

Results

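The genes described here are 9 genes of cumulus expansion and ovulation, Has2, Ptgs2, Ptx3, Tnfaip6, Areg, Ereg, Btc, Pgr and Adamts1, out of 22060 protein-coding genes counted in every table of the series. They were chosen by gene symbol, with earlier results of these data known, and no measured value entered the rule itself. All 9 symbols were found in each of the 8 gene count tables, and each had a read in at least 4 of the 8 single-cell granulosa datasets.

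Granulosa cells line the ovarian follicle, and those that surround the oocyte are called cumulus cells. Before ovulation, luteinizing hormone acts on the outer (mural) granulosa cells, which release the epidermal growth factor (EGF)-like ligands amphiregulin (Areg), epiregulin (Ereg) and betacellulin (Btc). These ligands act through the EGF receptor on the cumulus cells, which then make the hyaluronan synthase Has2, the prostaglandin synthase Ptgs2, and Tnfaip6 and Ptx3, secreted proteins that cross-link the hyaluronan chains, so that the cumulus expands. The progesterone receptor Pgr and the secreted protease Adamts1, which cleaves the proteoglycan versican, act in the granulosa wall during the rupture of the follicle. Both genes are known for their induction by the ovulatory surge, as are the other members.

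The study amplified cDNA from single cells cut from mouse ovarian sections by laser-capture microdissection (LCM). DRaqL is the study's lysis step for such cells, used before cDNA amplification by SC3-seq, Smart-seq2 or SMART-Seq v4. The comparison to which the 9 genes bear most closely came from a single 8-week-old mouse that was in proestrus, the phase of the estrous cycle that precedes ovulation, by vaginal smear. One ovary was frozen, and 70 granulosa cells of its sections were isolated by LCM and amplified by DRaqL-Smart-seq2. Of these, 35 neighbored the oocyte and 35 did not. The other ovary gave 35 freshly dissociated granulosa cells of cumulus-oocyte complexes, amplified by Smart-seq2 after handling in medium with dibutyryl-cAMP, a membrane-permeable cAMP analogue. Of these, 14 were attached to an oocyte and 21 were not. Ovary, isolation, medium, follicle choice and amplification all differ between the dissociated and the LCM cells and cannot be told apart, and neither the hour nor whether the hormone surge had begun was stated in the sources used here. The other single granulosa cells were 34 by DRaqL-Smart-seq2, 37 by LCM-seq, 34 by SMART-Seq v4, 39 by DRaqL-SMART-Seq v4 and 57 by DRaqL-SC3-seq, all from alcohol-fixed frozen sections of 8-week-old females, and 24 by DRaqL-Protease-Smart-seq2 from sections left in formalin for 24 h. The paper states that the amplification methods it compared on sections all used a single ovary, so these datasets do not stand for separate animals. It took the DRaqL-SC3-seq granulosa cells from secondary-to-early antral follicles. Replicated bulk groups were 7 pools of 10 neighboring cells, 7 pools of 10 non-neighboring cells (both from early antral follicles) and 7 samples of the whole granulosa of a sectioned follicle, all by DRaqL-SC3-seq. Of the bulk follicles, those sectioned through an oocyte were early antral and had it removed first, while the stage of the others is unknown. The labels gave no strain. No mouse of the series was stated to have received a hormone, and outside the proestrus mouse the cycle stage was not given in the sources used here. For the 10-cell pools and bulk samples nothing says which came from separate animals, so their p-values measure the spread between these samples. Each single-cell group is treated as 1 sample, since cells of 1 mouse are not replicates, and its intervals cover counting error only.

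Depth sets what can be seen of genes this low. In reads on protein-coding genes, the dissociated cells had 12748 to 353959 per cell (median 111681) and the LCM cells of the same mouse 21733 to 3745815 (median 262594). Levels are given as RPM, the read count normalised to 1000000 reads on protein-coding genes. A single read equals 8.95 RPM in the median dissociated cell and 3.81 RPM in the median LCM cell. The medians of the 6 other single-cell granulosa datasets lay between 164188 and 831978 reads, the pools held 3811945 to 8259281 and the bulk samples 3826680 to 7446680. The granulosa label was checked with 14 markers, all of which were found in each granulosa dataset, with summed levels of 580.5 to 76303 RPM in the dissociated cells and 318.8 to 12469 RPM in the LCM cells of the proestrus mouse. Oocyte markers reached 10% of the median oocyte level in 3 of 35 dissociated cells, all attached to an oocyte, and in 4 of 70 LCM cells. The paper judged mixing from whole expression profiles and counted more of the dissociated cells as mixed, including a cell not attached to an oocyte. No 2 libraries held identical values.

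Positions are from GENCODE on GRCm38. Has2 (ENSMUSG00000022367) lies on chr15:56665627-56694539, minus strand, and overlaps the antisense RNA Has2os. Tnfaip6 (ENSMUSG00000053475) lies on chr2:52038009-52056686, plus strand, and Ptx3 (ENSMUSG00000027832) on chr3:66219910-66225805, plus strand, inside the oppositely oriented gene Veph1. Ptgs2 (ENSMUSG00000032487) lies on chr1:150100031-150108227, plus strand, with Ptgs2os within 10 kb of its 3′ end. The 3 ligands are neighbors on chromosome 5: Ereg (ENSMUSG00000029377) at chr5:91074622-91093646, plus strand and overlapped by the antisense Gm19610, Areg (ENSMUSG00000029378) at chr5:91139599-91148432, plus strand, and Btc (ENSMUSG00000082361) at chr5:91357261-91402994, minus strand. Pgr (ENSMUSG00000031870) lies on chr9:8899833-8968611, plus strand, with Gm16485 within 10 kb of its 3′ end, and Adamts1 (ENSMUSG00000022893) on chr16:85793827-85803113, minus strand. The libraries read the 3′ ends of transcripts, and whether the counting used strand was not given in the sources used here, so reads of Has2, Ptgs2, Ptx3, Ereg and Pgr could in part belong to the overlapping or adjacent gene.

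The cAMP response element, with its palindrome TGACGTCA and core TGACG, is bound by CREB-family factors, through which gonadotropins and cAMP act on transcription in granulosa cells. Because the dissociated cells were handled with a cAMP analogue, 3 upstream sequences are shown: those of Areg and Adamts1, 2 of the 4 members that had a read in those cells, and that of the immediate early gene Fos, which stood apart between the isolations (see the levels of pathway genes further on). Each is the 250 bases before the RefSeq start on GRCm38.p6, read 5′ to 3′ on the gene's strand, with every TGACG on either strand (CGTCA when read on the opposite strand) in capitals, for Fos at chr12:85473640-85473889 (plus), Areg at chr5:91139349-91139598 (plus) and Adamts1 at chr16:85803114-85803363 (minus).
Fos: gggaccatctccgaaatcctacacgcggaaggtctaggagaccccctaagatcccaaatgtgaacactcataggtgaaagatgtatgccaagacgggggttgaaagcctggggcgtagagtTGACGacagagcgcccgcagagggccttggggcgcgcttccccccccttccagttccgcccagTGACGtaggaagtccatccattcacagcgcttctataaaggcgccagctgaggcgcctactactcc
Areg: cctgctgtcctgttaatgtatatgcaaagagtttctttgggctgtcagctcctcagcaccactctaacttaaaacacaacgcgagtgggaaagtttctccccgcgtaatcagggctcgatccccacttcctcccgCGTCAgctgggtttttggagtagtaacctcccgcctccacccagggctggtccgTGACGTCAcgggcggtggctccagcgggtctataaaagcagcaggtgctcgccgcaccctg
Adamts1: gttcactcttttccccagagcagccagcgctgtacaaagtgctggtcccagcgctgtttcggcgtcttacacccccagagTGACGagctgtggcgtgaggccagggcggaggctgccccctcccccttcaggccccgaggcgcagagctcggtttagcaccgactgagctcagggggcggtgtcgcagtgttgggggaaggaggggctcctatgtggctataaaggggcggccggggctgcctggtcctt
The whole palindrome, which contains the core on both strands, stood 61 bases before the start of Areg, and 1.55% of the 32851 promoter windows in the RefSeq table held it. The core stood in the 250 bases before Areg, Btc and Adamts1, 3 of the 7 members with an entry in the table, and 17.8% of all windows held it. When 50 bases after the start were included, Ptgs2 joined them, against 20.8% of all windows. Tnfaip6, also read in the dissociated cells, held the core in neither window. Of 8 immediate early genes with an entry, 6 held it in either window. A match says only that these letters are in the window.

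In the proestrus mouse the 9 genes were at or near the detection limit. Of the 35 dissociated cells, 16 had a read of any member (45.7%, 95% Clopper-Pearson interval 28.8% to 63.4%), and of the 70 LCM cells 25 had (35.7%, 24.6% to 48.1%). Has2, Ptgs2, Ptx3, Ereg and Pgr had 0 reads among the 4350732 reads of the dissociated cells, which allows a level of up to 0.690 RPM for each gene and a share of cells with a read of up to 8.57%. Among the dissociated cells Adamts1 had the most reads of the 9 genes, and over the summed libraries it stood at 23.4 RPM (exact Poisson interval 19.1 to 28.5). Without 1 multiplexed library, described below, it stood at 5.70 RPM, so the interval does not cover the spread between cells and libraries. Ptx3 and Areg had 0 reads in all 70 LCM cells, which allows up to 0.0955 RPM. At these levels a cell without a read is not a cell without the transcript.

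Has2, the synthase of the hyaluronan backbone, was read in 1 LCM cell, which did not neighbor an oocyte and held 33 reads (114.1 RPM). All other 69 LCM cells and all dissociated cells were at 0. Tnfaip6, which transfers inter-alpha-inhibitor heavy chains onto hyaluronan, was read in 3 dissociated cells. Attached cells held 15 reads (170.1 RPM) and 5 reads (45.3 RPM), and a cell that was not attached held 2 reads (14.4 RPM). Among the LCM cells it was read in 2 neighboring cells, at 146.7 and 57.7 RPM, and in 2 non-neighboring cells at 0.267 and 1.10 RPM, the latter pair in libraries of 3745815 and 2718679 reads. The highest Tnfaip6 levels of both isolations were thus in cells next to an oocyte, 2 of 14 and 2 of 35. Ptx3, the pentraxin that links the heavy chains, was read in no granulosa cell of this mouse.

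Ptgs2, the inducible cyclooxygenase, was read in 3 LCM cells, with 2 reads in a neighboring cell (6.27 RPM) and 1 and 9 reads in non-neighboring cells (3.69 and 11.5 RPM). Of the EGF-like ligands, Areg was read in 2 dissociated cells, neither attached to an oocyte, with 4 reads (17.3 RPM) and 6 reads (67.1 RPM). Ereg was represented by 1 read in an LCM cell of 1181269 reads. Btc was read in both isolations, in 4 of 35 dissociated cells (11.4%, 3.20% to 26.7%) and 7 of 70 LCM cells (10.0%, 4.12% to 19.5%). In the dissociated cells it had 1 to 3 reads a cell, at most 25.6 RPM, whereas 2 non-neighboring LCM cells held 99 and 38 reads (155.0 RPM in the higher) and the other 5 LCM cells 1 to 6. Summed over cells, Btc stood at 1.38 RPM (0.506 to 3.00) in the dissociated and 4.94 RPM (4.19 to 5.78) in the LCM cells. These intervals leave out the spread between cells, and most of the LCM reads came from the 2 cells named above. Pgr, the nuclear progesterone receptor, was read in 4 LCM cells, none of which neighbored an oocyte, and 17 of its 21 reads were in 1 cell (70.0 RPM).

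Adamts1 was read in 10 of 35 dissociated cells (28.6%, 14.6% to 46.3%) and in 11 of 70 LCM cells (15.7%, 8.11% to 26.4%). The 3 attached cells held 22.8, 85.7 and 14.5 RPM. The 7 cells that were not attached ranged from 4.33 to 143.7 RPM, and 5 of them exceeded 60 RPM. In the LCM cells the 11 values ranged from 0.267 to 110.7 RPM, and 3 exceeded 90 RPM, at 92.97, 110.7 and 95.9 RPM. The cells with a read thus covered overlapping ranges in the 2 isolations. The mean log2 (RPM+1) was 1.57 ± 2.65 (SD over 35 cells) in the dissociated and 0.64 ± 1.69 (SD over 70 cells) in the LCM cells, a difference of 0.93. One multiplexed library decided this difference. Its 10 cells, none of them attached to an oocyte, included 6 with an Adamts1 read, and without it 4 of 25 dissociated cells had a read (16%, 4.54% to 36.1%) and the difference was 0.13. In that library Tnfaip6, Areg and Btc were each read in 1 of the 10 cells.

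**Figure D1:**
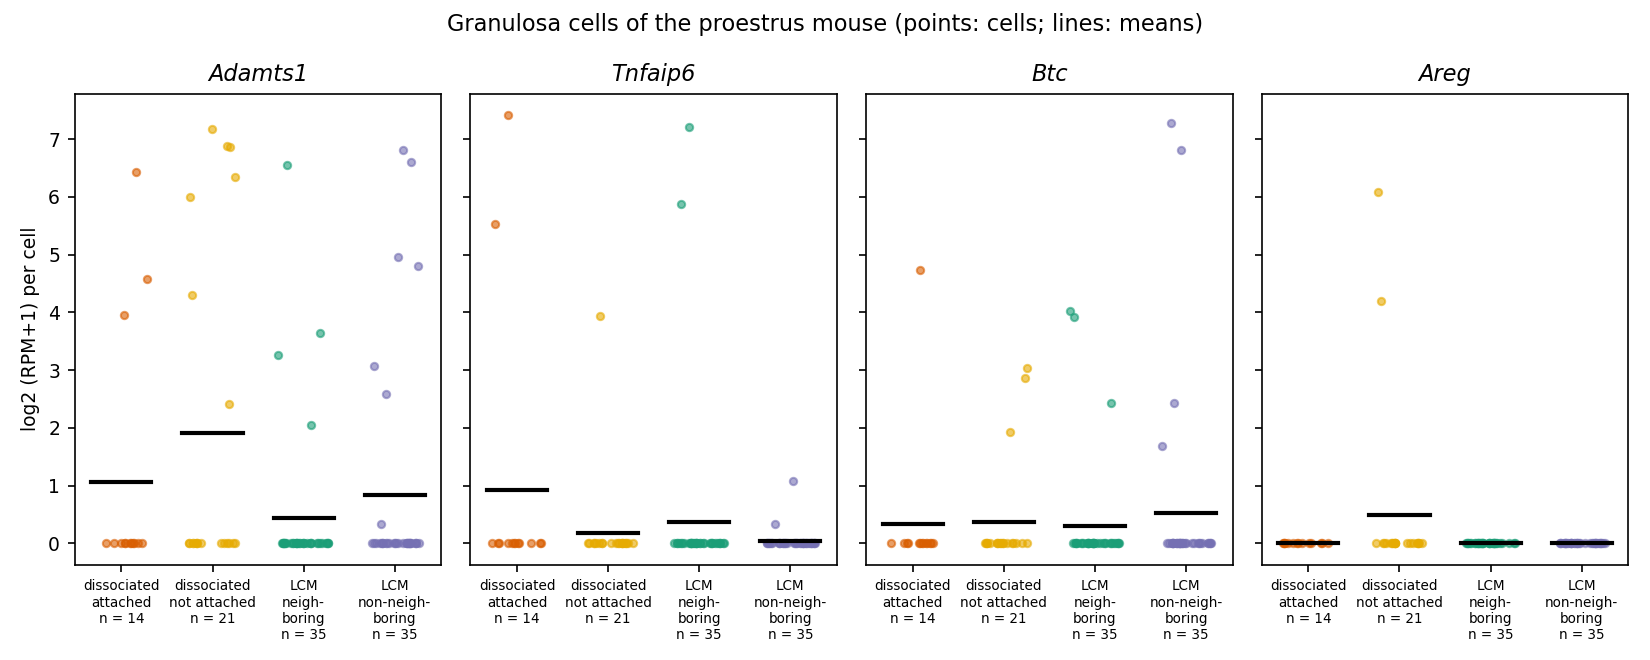
Level of the 4 members with a read in the dissociated cells, as log2 (RPM+1) per cell (vertical axis), in the 4 groups of granulosa cells of the proestrus mouse; points are cells, shifted sideways at random, and lines are group means. Most cells sit at 0, and Adamts1 has the most cells above 0, with means of 1.07 and 1.91 in attached and not attached dissociated cells and 0.44 and 0.83 in neighboring and non-neighboring LCM cells. Among the not attached cells, 6 with an Adamts1 read came from a single multiplexed library that held no attached cell.

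With 1 mouse there is no test of isolation or position. As a description, a gene was called different where the means of log2 (RPM+1) differed by more than 1.8, among genes above 4 in at least 1 cell. Between dissociated and LCM cells, 15.7% of 15700 such genes were called in either direction and 8.86% as higher in the dissociated cells, and none of the 6 members that could be assessed (Has2, Tnfaip6, Areg, Btc, Pgr and Adamts1) was called. The differences were 0.28 for Tnfaip6, 0.29 for Areg, -0.05 for Btc, -0.10 for Has2 and -0.13 for Pgr, beside a median of -0.06 over all genes. The unassessed members Ptgs2, Ptx3 and Ereg differed by -0.12, 0 and -0.01. A gene at 0 in nearly all cells has little room on this scale, since its mean cannot fall.

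Position was compared within each isolation. Among dissociated cells 16.1% of 13374 genes were called between attached and not attached cells, nearly all of them lower in attached cells (2103 lower and 53, or 0.396%, higher), which had fewer reads (median 87884 against 132194) and included all 3 cells past the 10% cut for oocyte markers. The median difference of all genes was -0.59. Without those 3 cells 15.7% of 12720 genes were called and the median difference was -0.65. None of the 4 members assessed was called. Tnfaip6 differed by 0.74 (0.93 ± 2.38 over 14 attached cells, 0.19 ± 0.86 over 21 others), Areg by -0.49, Btc by -0.04 and Adamts1 by -0.84 (1.07 ± 2.18 against 1.91 ± 2.92). The multiplexed library described above held 10 of the 21 not attached cells, 6 of them with an Adamts1 read, and no attached cell. The Adamts1 difference between positions therefore also depends on that library. Among LCM cells 1.92% of 15020 genes were called (0.812% as higher in neighboring cells) between neighboring and non-neighboring cells and again none of the 5 members assessed, whose differences were 0.33 for Tnfaip6, -0.20 for Has2, -0.22 for Btc, -0.26 for Pgr and -0.39 for Adamts1. In each of these comparisons the larger of both groups' SDs exceeded the difference.

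When the log2 ratio of mean RPM was used in place of the mean of logs, single cells carried more weight. Attached exceeded not attached dissociated cells by 3.28 for Tnfaip6 and fell short by -2.33 for Areg, and neighboring exceeded non-neighboring LCM cells by 2.72 for Tnfaip6 and fell short by -2.09 for Has2 and -2.16 for Btc. On that scale 24.3% of genes in the dissociated cells and 16.9% in the LCM cells passed 1.8. These values rested on the 2 attached and 2 neighboring cells with Tnfaip6 reads, 2 cells with Areg reads, 1 cell with Has2 reads, and 2 cells with over 100 RPM of Btc.

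Across all 330 single granulosa cells, 184 (55.8%) had a read of a member, and 63 cells (19.1%) had reads of 2 or more, with at most 4 members in a cell. The share with a read of any member was lowest in the LCM cells of the proestrus mouse (35.7%) and in DRaqL-SC3-seq (43.9%) and highest in LCM-seq (72.97%) and DRaqL-Smart-seq2 (79.4%). Depth differed between the datasets, and the order of the shares did not follow it. Median reads per cell were 831978 in DRaqL-Smart-seq2 and 573406 in DRaqL-SC3-seq, against 164188 in formalin-fixed cells, of which 66.7% had a read of a member. With each cell thinned to the depth of the shallowest (12748 reads), 22.9% of the dissociated cells, 10.0% of the LCM cells and 20.6% of the DRaqL-Smart-seq2 cells kept a read of any member, as did 3.51% to 10.8% of the cells of the other 5 datasets.

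By gene, Adamts1 was read in the most granulosa cells (58 of 330, 17.6%), followed by Tnfaip6 (50 cells), Btc (45 cells) and Areg (40 cells). Pgr was read in 29 cells, Has2 in 16, Ptgs2 in 15, Ptx3 in 7 and Ereg in 6. Adamts1 and Tnfaip6 were read in all 8 datasets, Areg, Btc and Pgr in 7, Has2 and Ptgs2 in 6, Ereg in 5 and Ptx3 in 4. The summed level of Adamts1 ranged from 1.13 RPM in formalin-fixed cells to 23.4 RPM in dissociated cells of the proestrus mouse (5.70 RPM without the multiplexed library described above), with 13.7 RPM in DRaqL-Smart-seq2, 7.41 in SMART-Seq v4, 4.60 in LCM-seq, 3.92 in the LCM cells of the proestrus mouse, 2.58 in DRaqL-SMART-Seq v4 and 2.23 in DRaqL-SC3-seq. In DRaqL-SC3-seq all 74 of its reads were in 2 non-neighboring cells, at up to 156.5 RPM, and it was read in 0 of 31 neighboring cells. On the log scale the dissociated cells (mean log2 (RPM+1) 1.57 ± 2.65, and 0.77 without that library) and DRaqL-Smart-seq2 (1.53 ± 2.29 over 34 cells) lay side by side, next came LCM-seq (0.79 ± 1.69 over 37 cells), and no neighbors in this order were separated by more than their spread. Thinned to 50000 reads, Adamts1 was read in 27.3% of 33 dissociated cells, 17.6% of 34 DRaqL-Smart-seq2 cells, 11.6% of 69 LCM cells of the proestrus mouse and 2.56% to 8.82% of the cells of the other 5 datasets.

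**Figure D2:**
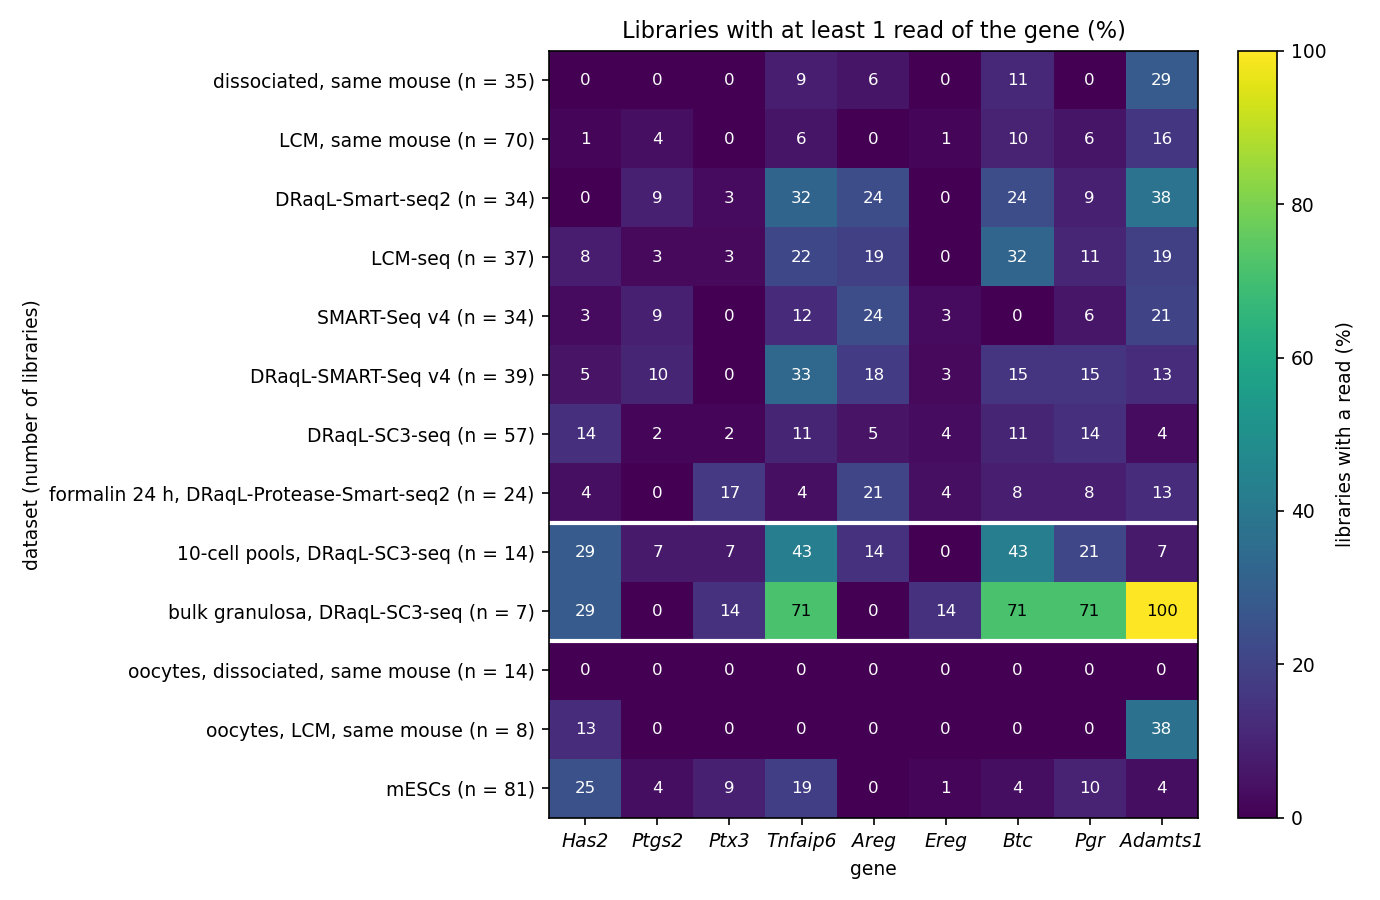
Share of libraries with at least 1 read of each gene, in percent (number and colour, 0 to 100), by gene (horizontal axis) and dataset (vertical axis, with the number of libraries), with single granulosa cells above the first white line, pools and bulk granulosa between the lines, and oocytes and embryonic stem cells below. Adamts1 is read in 100% of the bulk granulosa samples and in 7% of the pools, and Ptx3 and Ereg stay at or below 17% in every single-cell granulosa dataset.

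Tnfaip6 was read in 33.3% of DRaqL-SMART-Seq v4 cells and 32.4% of DRaqL-Smart-seq2 cells but with 21 reads in all in either dataset, and its summed level there was 0.887 and 0.708 RPM, against 5.06 RPM (3.17 to 7.66) in the dissociated cells, where 20 of 22 reads came from 2 cells. Btc was high in a few cells of several datasets, with 144.4 RPM in a neighboring cell of DRaqL-Smart-seq2, 112.4 RPM in a non-neighboring cell of LCM-seq and 72.3 RPM in a formalin-fixed cell. Its read share was highest in LCM-seq, 12 of 37 cells (32.4%), and 0 of 34 in SMART-Seq v4. Areg was read in 18.9% to 23.5% of LCM-seq, SMART-Seq v4 and DRaqL-Smart-seq2 cells, at 0.472 to 0.613 RPM summed, and its highest single value was 88.5 RPM in a non-neighboring cell of DRaqL-SC3-seq that held 48 reads. Pgr reached 93.2 RPM in a neighboring cell of DRaqL-SMART-Seq v4 and 30.7 RPM in a DRaqL-SC3-seq cell. Ptx3 was read in 4 of 24 formalin-fixed cells, at up to 32.6 RPM, and in 3 cells of all other datasets together. The high values were thus single cells, in both positions, and no member was read in more than 38.2% of the cells of any single-cell granulosa dataset.

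The reads of the members were set beside other cells of the same tables. In the 14 dissociated oocytes of the proestrus mouse (median 252996 reads, against 111681 in its granulosa cells) no member had a read, which allows up to 0.700 RPM. The 8 LCM oocytes held 4 reads of Adamts1 and 2 of Has2. The 127 oocyte libraries of the series came from 119 oocytes, since 16 of them were 2 serial sections of each of 8 oocytes. Adamts1 was read in 49 of the 119 oocytes (41.2%) and Tnfaip6 in 36 (30.3%), shares above those of granulosa cells, in libraries of greater depth. In the 12 formalin-fixed oocytes Adamts1 summed to 9.68 RPM. The 81 mouse embryonic stem cells (median 2004431 reads) were cells of another lineage grown in culture. Of these, 45 were freshly dissociated and 36 were cut by LCM from cell-block sections, and 57.8% and 38.9% had a read of a member. Over both preparations together, Tnfaip6 was read in 18.5%, Has2 in 24.7%, Pgr in 9.88% and Areg in 0%, with summed levels of 0.753, 0.182, 0.245 and 0 RPM. The granulosa shares of Has2, Tnfaip6, Pgr and Ptx3 over all 330 cells were 4.85%, 15.2%, 8.79% and 2.12% (8.64% of stem cells for Ptx3), but the stem cell libraries were deeper, so these shares cannot be ranked. By summed level the highest granulosa datasets lay above the stem cells, at 5.06 RPM for Tnfaip6, 3.89 RPM for Pgr, 1.61 RPM for Has2 and 1.51 RPM for Ptx3 (0.0816 RPM in stem cells). The lowest granulosa datasets lay below the stem cells, at 0.188 RPM for Tnfaip6 and 0 RPM for Pgr, Has2 and Ptx3. These 4 genes therefore give no general order of the cell types. By share of cells, Areg (12.1%), Btc (13.6% against 3.70%) and Adamts1 (17.6% against 3.70%) were above the stem cells in libraries of lower depth.

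Genes of the surrounding pathways were measured in the cells of the proestrus mouse. Immediate early genes, the transcription factors and signal regulators that respond within minutes to growth factors, cAMP or handling, stood higher in the dissociated cells for 6 of 9 genes assessed (median difference of the 9 genes 2.76). Fos had a mean log2 (RPM+1) of 7.89 ± 3.42 in the dissociated and 1.39 ± 2.53 in the LCM cells, with a read in 33 of 35 and 19 of 70 cells. Jun stood at 6.74 ± 3.03 and 0.91 ± 1.99 and Ier2 at 5.31 ± 3.74 and 1.38 ± 2.50, and the other 3 were Junb, Egr1 and Fosb. The summed level of the 10 immediate early genes had a median of 730.7 RPM (7.62 to 10244) in the dissociated and 27.99 RPM (0 to 991.0) in the LCM cells, and medians of 0 to 77.4 RPM in the 6 other single-cell granulosa datasets. Dissociated cells with an Adamts1 read (median 742.3 RPM) and those without (730.7 RPM) lay close together, while LCM cells with a read had 96.0 RPM and those without 13.9 RPM. The part of isolation and handling in these values was not tested.

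Among gonadotropin signal and steroid genes 3 of 7 were higher in the dissociated cells and none lower (median difference 0.95). Inhba, the activin and inhibin beta A subunit, stood at 9.08 ± 5.12 against 1.74 ± 2.69 and was read in 29 of 35 and 26 of 70 cells. Hsd17b1, a final enzyme of estradiol synthesis, stood at 9.08 ± 2.09 against 5.90 ± 2.32, and the aromatase Cyp19a1 at 3.29 ± 3.51 against 1.02 ± 2.41. The receptor of luteinizing hormone, Lhcgr, was read in 10 of 35 dissociated and 18 of 70 LCM cells (mean log2 (RPM+1) 1.24 and 0.96). Granulosa markers as a whole had 7 of 14 genes higher and none of the 3 cumulus-enriched markers was called in either direction. Of the other cell type lists, blood and macrophage markers had 1 of 4 genes higher (Hba-a1, 2.08 ± 3.94 against 0.26 ± 1.17), theca markers 1 of 4 lower (Ptch1), and endothelial, mural-enriched and oocyte markers none called. Summed blood markers reached 49954 RPM in a dissociated cell, and their part in these differences was not tested.

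The receptors and substrates of the members were better measured than the members. The EGF receptor Egfr stood at 5.43 ± 2.87 in the dissociated and 6.09 ± 2.86 in the LCM cells, and was read in 29 of 35 and 67 of 70 cells, and it was among 8 EGF-family ligands and receptors assessed, of which none was called (median difference of the 8 genes -0.35). Versican (Vcan), the Adamts1 substrate of the matrix, stood at 3.81 ± 3.55 and 4.14 ± 3.68, and no gene of 7 hyaluronan matrix partners was called. Of 7 prostaglandin genes 2 were higher in the dissociated cells, the prostaglandin E synthases Ptges (6.40 ± 2.96 against 4.43 ± 3.02) and Ptges2 (2.79 ± 3.06 against 0.87 ± 2.11), in cells in which the upstream enzyme Ptgs2 was not read. Among 8 proteases and inhibitors the cathepsin Ctsl was higher (9.90 ± 2.49 against 7.04 ± 2.60), and the 3 other Adamts proteases of the list were not called. Of 8 transcription regulators and Pgr-dependent genes assessed, Cebpb, a mediator of the luteinizing hormone response, was higher (6.48 ± 3.13 against 2.97 ± 2.95) and Runx1 lower (2.14 ± 2.82 against 4.88 ± 3.49). Of the oocyte-granulosa arrest and contact genes 0 of 4 were called, with Nppc, the ligand that holds the oocyte in meiotic arrest, at 1.98 ± 3.01 against 0.23 ± 1.04. Side by side, therefore, the dissociated cells held immediate early genes and Inhba at high levels while the 9 members stayed low in both isolations.

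**Figure D3:**
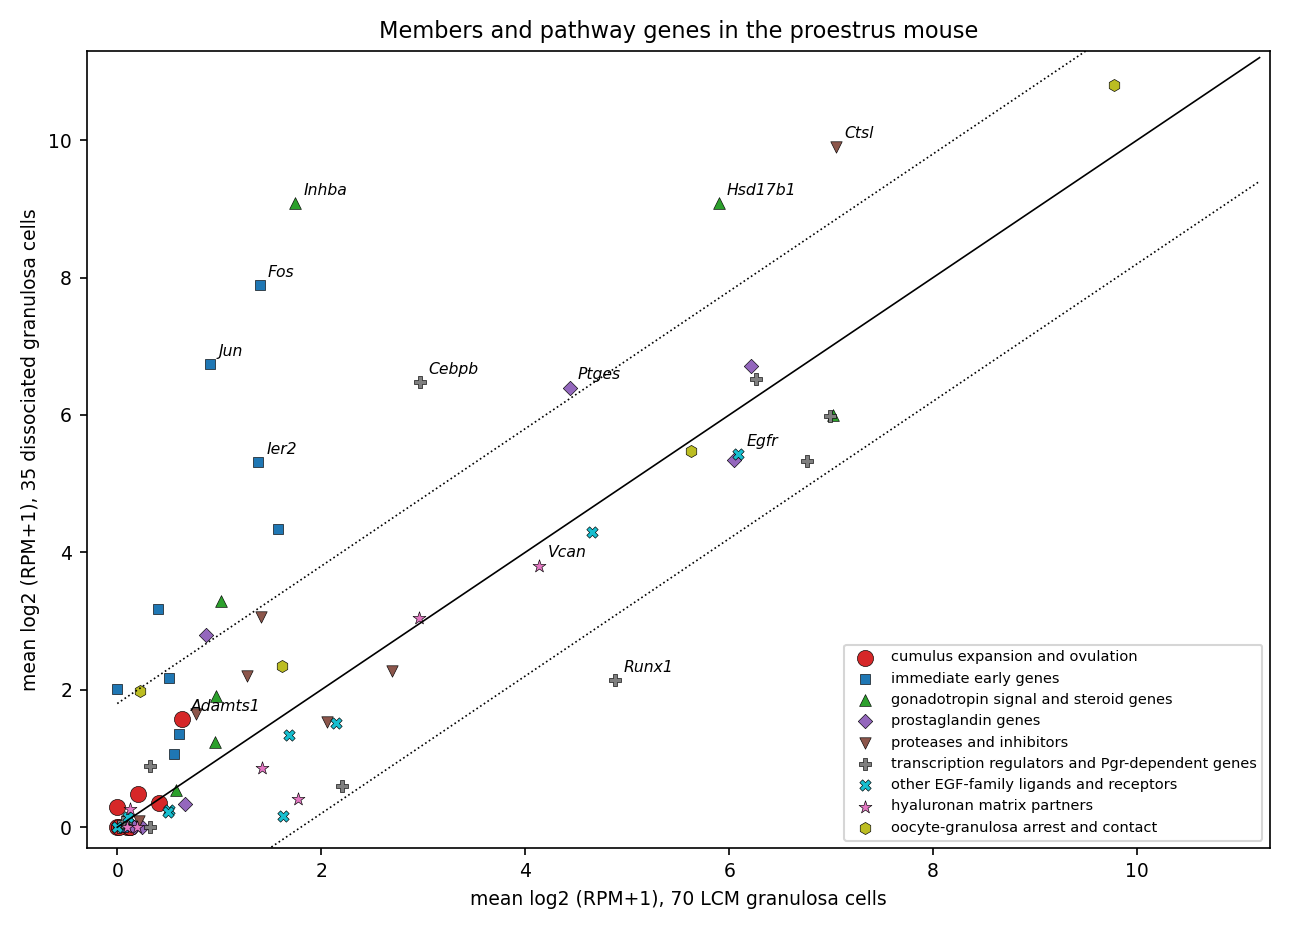
Mean log2 (RPM+1) of the 9 members (large circles) and of the genes of 8 pathway lists in 70 LCM (horizontal axis) and 35 dissociated granulosa cells (vertical axis) of the proestrus mouse, with the line of equality and dotted lines 1.8 above and below it. Fos, Jun, Ier2 and Inhba lie far above the upper dotted line, while all 9 members lie between the dotted lines at the lower left.

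The genes whose level most resembled the mean log2 (RPM+1) of the 9 members across the 35 dissociated cells, of 8732 genes read in at least 10 of them, were Myo5a (Pearson r = 0.69), Comtd1 (0.67), Pggt1b (0.66), Ankle2 (0.62) and Tprkb (0.62). The cells share 1 mouse and few libraries and differ in depth, and the member mean rests on 16 cells above 0, so these values are a description of few cells.

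The 10-cell pools and bulk samples gave replicated values. All 9 members were under the count filter of the edgeR fit in both comparisons, in which 44 of 9704 genes (0.453%) were called between neighboring and non-neighboring pools and 12 of 11917 (0.101%) between bulk granulosa and pools at an adjusted p below 0.05. All 44 were higher in the neighboring pools and 9 of them were oocyte markers. All 12 were higher in bulk by edgeR, whereas DESeq2 called 32 genes higher and 54 lower. The members were therefore read from fits without the filter, with p-values adjusted over all genes with a read. In a bulk sample fewer cells that express a gene and less RNA per cell cannot be told apart.

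Adamts1 was read in all 7 bulk samples, at 0.480, 0.207, 1.28, 0.738, 1.42, 2.55 and 0.784 RPM (1 to 19 reads), and in 1 of 14 pools, a non-neighboring pool at 1.20 RPM (6 reads). Thus 13 pools were at 0 and below every bulk sample, and the pool with a read lay inside the bulk range. A bulk sample held far more cells than the 10 of a pool. The median number of genes with a read was 15610 in bulk samples and 12522.5 in pools. The part of cell number in the Adamts1 values was not tested. Without the filter, bulk exceeded the pools by 4.07 on the log2 scale (SE 0.98, edgeR quasi-likelihood test, adjusted p = 0.0255), in a fit that called 2.31% of 20075 genes and 2.25% as higher in bulk. Fitted fold changes of a gene at 0 in most pools depend on the prior count. The call was lost with DESeq2 (adjusted p = 0.184) and when libraries numbered 03, 05 or 06 were left out of both groups, with edgeR adjusted p = 0.0715, 0.0729 and 0.100.

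The other members were not called in bulk. Btc was read in 5 of 7 bulk samples at up to 1.28 RPM and in 6 of 14 pools at up to 1.72 RPM (log2 difference 0.75, SE 1.01, edgeR adjusted p = 0.879). Tnfaip6 was read in 5 of 7 bulk samples, at up to 0.784 RPM, and in 6 of 14 pools, at 0.131 to 0.496 RPM apart from 1 neighboring pool at 5.10 RPM. Pgr was read in 5 of 7 bulk samples at 0.269 to 1.31 RPM, and in 3 pools, of which a non-neighboring pool held 583 reads (116.5 RPM) and a neighboring pool 34 reads (8.26 RPM). The sign of its difference depended on the tool, at -3.14 by edgeR and 3.30 by DESeq2 on the log2 scale, with adjusted p = 0.546 and 0.609. Has2 was read in 2 bulk samples (0.639 and 0.403 RPM), Ptx3 and Ereg in 1 each (0.134 and 0.537 RPM, the same sample), and Ptgs2 and Areg in none.

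Between neighboring and non-neighboring pools no member was called in the fit without the filter, which called 0.294% of 19026 genes, and Ereg had no read. The lowest edgeR adjusted p was 0.196, for Ptx3, whose only 17 reads were in 1 neighboring pool (3.83 RPM), and the lowest by DESeq2 was 0.558, for Tnfaip6. Tnfaip6 was read in 4 of 7 neighboring pools (0.379 to 5.10 RPM) and in 2 of 7 non-neighboring pools (0.131 and 0.156 RPM), with a log2 difference of 3.54 (SE 1.41, edgeR adjusted p = 0.243, unadjusted p = 0.0186). Without both pools numbered 01, one of which held the 5.10 RPM, the log2 difference was 1.67 (SE 1.28, edgeR adjusted p = 0.648). The neighboring pools with a Tnfaip6 read held 21, 2, 2 and 3 reads, and the 2 non-neighboring pools with one held 1 read each. The other 3 neighboring pools were at 0. Areg was read in 2 neighboring pools, with 2 reads and 1 read (edgeR adjusted p = 0.324), and in no non-neighboring pool, and Adamts1 in the opposite sense in 1 non-neighboring pool (adjusted p = 0.265 by edgeR). The same neighboring pool, number 01, held the highest Has2 (3.40 RPM), Tnfaip6 (5.10 RPM) and Areg (0.486 RPM) and the second highest Pgr of the 14 pools.

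**Figure D4:**
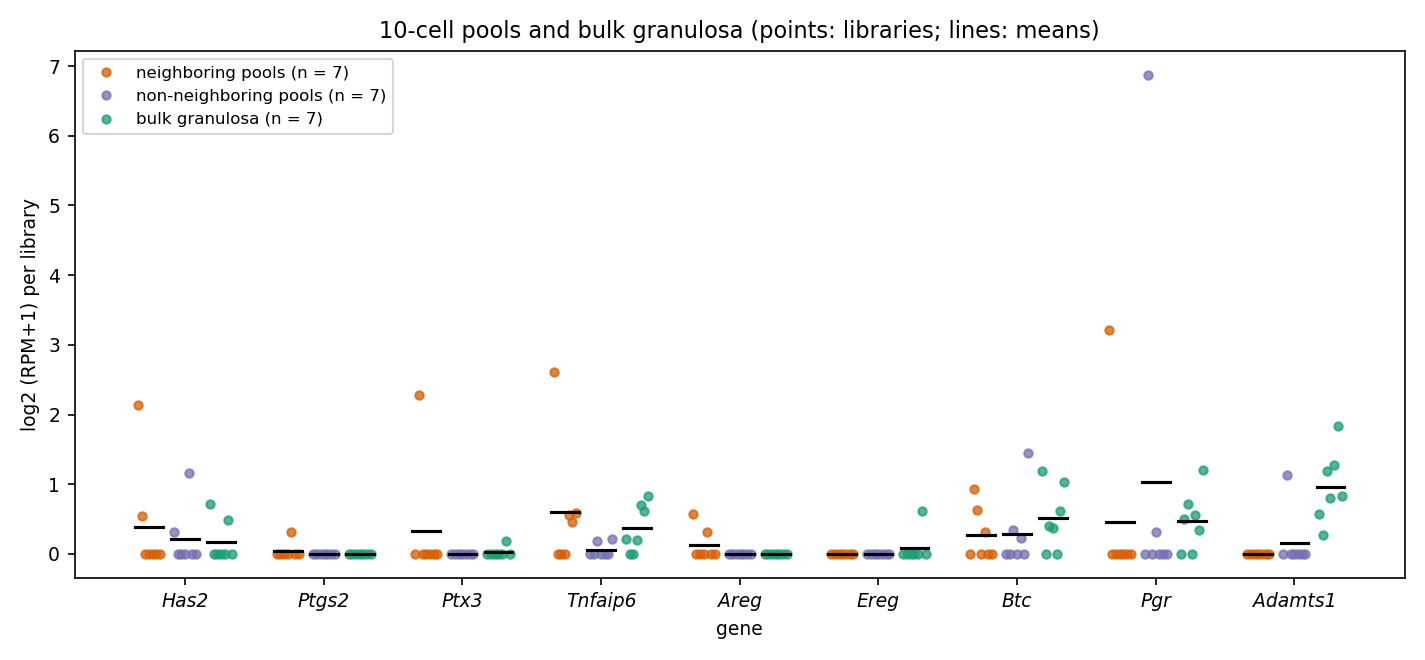
Level of each member as log2 (RPM+1) per library (vertical axis) in 7 neighboring pools, 7 non-neighboring pools and 7 bulk granulosa samples; points are libraries and lines are group means. Adamts1 is above 0 in all 7 bulk samples and in 1 pool, and the highest point is Pgr in a non-neighboring pool at 116.5 RPM.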

How the data were processed

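The libraries read transcript 3′ ends. Per the labels and the study's methods, the authors aligned reads to the mouse genome and deposited raw read counts per gene, assigning a read to a gene when it fell up to 10 kb from that gene's 3′ end. The submitters' processing notes name cutadapt 1.16, fastp 0.20.0, HISAT2 2.1.0, HTSeq 0.10.0 and featureCounts 2.0.1. From the deposited counts, RPM was computed over 22060 protein-coding genes, which keeps tables of different gene content comparable, and log2 (RPM+1) per library. Summed levels are summed reads over summed totals with exact Poisson intervals, and shares have 95% Clopper-Pearson intervals. The Poisson intervals treat reads as independent, although the cDNA was amplified, and leave out the spread between cells. A gene at 0 reads was bounded at 3 reads. Replicated groups were fitted with edgeR 4.0.16 (TMM, filterByExpr, quasi-likelihood test, Benjamini-Hochberg adjustment at 0.05, R 4.3.3), with DESeq2 1.42.0 as the alternative. On simulated counts for genes past the filter, the edgeR pool fit recovered 33% of 8-fold and 64% of 64-fold changes. The bulk fit recovered 30% and 87%. False calls made up 2.02% (pools) and 4.10% (bulk) of the genes called. No member passed the filter, so a member left uncalled may still differ. All 9 members are named. List genes are named within their list's count or among the 3 largest differences of the list in either direction, and the most similar genes are the 5 with the highest r. The members and lists were chosen with earlier results of these data known. Mixed-profile cells were kept, and 3 granulosa cells of a separate table entered only an alternative. A single read in a shallow cell gives a high RPM, so low values depend on depth.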

Additional observations from a re-analysis of the deposited data

Results flagged for a closer look

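In groups of 7 pools or bulk samples, a library stood apart from the other 6 beyond Dixon's 95% limit for 11 of 19 member and group combinations with a read. Chance gives about 1 in 20 such flags for normally distributed values, but in groups where most libraries are at 0 any library with reads can stand apart. Among neighboring pools these were number 01 for Has2 (3.40 RPM, the others at 0 to 0.451), Tnfaip6 (5.10 RPM, the others at 0 to 0.496) and Pgr (8.26 RPM, the others at 0), number 02 for Ptx3 (3.83 RPM) and number 05 for Ptgs2 (0.238 RPM, 1 read). Among non-neighboring pools they were number 02 for Pgr (116.5 RPM, the others at 0 to 0.242) and Adamts1 (1.20 RPM, the others at 0), number 05 for Has2 (1.23 RPM) and number 07 for Btc (1.72 RPM). Bulk sample 06 stood apart for Ereg (0.537 RPM) and Ptx3 (0.134 RPM, 1 read). Non-neighboring pool 02 thus held both the 583 Pgr reads and the 6 Adamts1 reads, which were the only Adamts1 reads of the 14 pools.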

How the results depend on the processing

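Of 190 alternative values for single members in the proestrus mouse, 181 lay within 1 SD of the reported difference. That SD was the larger of both groups' SDs between cells, which exceeded the difference of every member with a read. Members without a read in either group stayed at 0 under every alternative. The count therefore says little about how firm the differences are. The count of members past the fold stayed at 0 between dissociated and LCM cells under all alternatives run, and between positions became 2 (dissociated) and 3 (LCM) with the log2 ratio of mean RPM. RPM over all genes was not run, as that table held protein-coding genes only. The share of granulosa cells with a member read was 16.7% at 5 reads or more, 10.9% after thinning to 12748 reads and 55.9% with the 3 added cells. Between pools edgeR called 0.453% of genes, DESeq2 1.19%, the fit without the filter 0.294%, and fits with a replicate number left out 0.0512% to 0.353% (27, 6, 5, 10 and 22 genes without numbers 03 to 07, against 44). Whether pools of the same number were paired was not settled. Their correlations were all positive, at 0.00593 to 0.188, above 0.1 in 2 of 7 pairs, and the own number was best in 3. With the replicate block 0.0309% (3 genes) were called. No member was called with the block and without the filter. In bulk edgeR called 0.101%, DESeq2 0.722%, the fit without the filter 2.31%, and fits with a number left out 0% to 0.334% (0 genes by edgeR without 05, 06 or 08, where 635, 563 and 586 had an unadjusted p under 0.05, then 3 without 03 or 07, 5 without 01 and 40 without 04, against 12). The Adamts1 call in bulk had adjusted p = 0.184 by DESeq2 and 0.0130 to 0.100 with a replicate left out. DESeq2, the block and left-out numbers without the filter, the values without 1 multiplexed library and thinning to 50000 reads were chosen after seeing the data. The causes of these shifts were not tested. Depth limits all member values: at 12748 reads a read equals 78.4 RPM.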
